A study of Homo sapiens with 2 samples.

Results

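The chemokines, interleukins and their receptors were followed in A2780 cells selected for drug resistance. Members were all genes on the array whose name begins with CCL, CXCL, CCR, CXCR or IL directly followed by a digit, which gave 145 of 30238 gene names, measured by 194 of 41000 probes. By role they were 25 CC chemokines, 14 CXC chemokines, 17 chemokine receptors, 44 interleukins, 41 interleukin receptors and 2 binding proteins or antagonists. The rule also took in IL4I1, an amino acid oxidase named for its induction by interleukin 4, and IL8RBP, a pseudogene of an interleukin 8 receptor. It missed chemokines with other names, such as CX3CL1, which were followed as a separate list.

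The parental A2780 cells come from a human ovarian carcinoma. A2780CBN was selected in rising doses of carboplatin, up to 22.2 µM, and A2780CBNDXL in carboplatin together with docetaxel. For A2780CBNDXL the labels give 8.02 µM. The paper reports that value as the carboplatin IC50 of this line when both drugs were given. Its selection dose of carboplatin was lower, and docetaxel was used at a far lower concentration than carboplatin. Each line was hybridized on 2-colour Agilent arrays beside a co-cultured control without drug, named A2780CC in both cases, and the methods state that a control was carried along with each line. The RNA of 3 isolations was mixed to give 1 sample for each line, which was run on 4 arrays, once in each labelling direction on either of 2 slides. A line is therefore 1 selected culture and 1 sample, every SD below is that of its 4 arrays, and no test across cultures was possible. The labels do not say whether the 2 lines share a control, so the 2 comparisons may not be independent and are given side by side.

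A log2 ratio below is always the resistant line over its control, and a signal is the processed intensity of 1 channel on a linear scale. Per-array values are given in the order of slide 1 forward, slide 1 reverse, slide 2 forward and slide 2 reverse. A change was called for a mean log2 ratio of 1 or more in either direction (2-fold), provided that the 4 arrays had 1 sign and that the line or the control was well above background on each of them. Of all spots, 59.8 to 67.5% per channel lay well above background, and none was saturated. Directions rest on the forward arrays, on which the resistant line carries Cy5; forward and reversed arrays correlated at 0.581 to 0.611 in A2780CBN and at 0.727 to 0.739 in A2780CBNDXL over all probes.

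Chemokines are small secreted proteins that act through G protein-coupled receptors and guide the movement of cells. Interleukins bind receptors that are mostly assembled from a ligand-specific chain and a chain shared among several cytokines, such as IL6ST (gp130) for the interleukin 6 family, IL2RG for interleukins 2, 15 and 21, and IL10RB for interleukins 10, 22, 26 and the lambda interferons. Many of these receptors signal through Janus kinases and STAT factors, with SOCS proteins as feedback inhibitors, whereas receptors for interleukins 1 and 17 signal toward NF-kappaB. In ovarian carcinoma the family is best known for interleukins 6 and 8 and for the CXCL12, CXCR4 and CXCR7 axis.

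Promoters are shown for 4 receptors with opposite log2 ratios in the lines and for CXCL11, a chemokine induced by interferon gamma, because the family signals largely through STAT factors. The windows hold the 250 bases before the RefSeq gene start on GRCh38.p14, written 5′ to 3′ on the gene's strand. Capitals mark a STAT-type GAS motif, TTCNNNGAA, or an AP-1 motif, TGANTCA, found on either strand; an interferon response motif (GAAA, any pair of bases, then GAAA) was also searched on both strands, and no matches overlapped in these windows.
IL15RA, chr10:5978047-5978296 (minus strand): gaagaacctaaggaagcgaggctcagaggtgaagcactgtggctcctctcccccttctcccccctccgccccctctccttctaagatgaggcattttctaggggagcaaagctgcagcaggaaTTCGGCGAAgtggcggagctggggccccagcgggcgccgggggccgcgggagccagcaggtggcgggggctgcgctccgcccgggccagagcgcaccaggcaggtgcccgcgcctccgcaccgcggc
IL28RA (now IFNLR1), chr1:24187290-24187539 (minus strand): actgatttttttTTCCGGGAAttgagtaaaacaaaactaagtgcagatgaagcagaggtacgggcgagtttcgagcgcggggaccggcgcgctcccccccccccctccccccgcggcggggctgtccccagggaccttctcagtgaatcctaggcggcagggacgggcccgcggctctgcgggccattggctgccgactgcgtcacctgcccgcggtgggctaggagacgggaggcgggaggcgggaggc
CXCL11, chr4:76036071-76036320 (minus strand): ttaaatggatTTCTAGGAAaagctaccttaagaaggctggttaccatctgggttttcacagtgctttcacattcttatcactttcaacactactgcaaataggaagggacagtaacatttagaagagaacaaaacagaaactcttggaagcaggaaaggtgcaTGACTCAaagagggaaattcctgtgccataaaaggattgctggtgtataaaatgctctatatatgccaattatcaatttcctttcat
IL21R, chr16:27427021-27427270 (plus strand): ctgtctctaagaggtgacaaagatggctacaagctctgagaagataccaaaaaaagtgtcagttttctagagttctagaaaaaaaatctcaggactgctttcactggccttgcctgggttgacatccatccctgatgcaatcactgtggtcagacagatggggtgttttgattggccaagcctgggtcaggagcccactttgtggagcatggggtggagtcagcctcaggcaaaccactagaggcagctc
IL6R, chr1:154405093-154405342 (plus strand): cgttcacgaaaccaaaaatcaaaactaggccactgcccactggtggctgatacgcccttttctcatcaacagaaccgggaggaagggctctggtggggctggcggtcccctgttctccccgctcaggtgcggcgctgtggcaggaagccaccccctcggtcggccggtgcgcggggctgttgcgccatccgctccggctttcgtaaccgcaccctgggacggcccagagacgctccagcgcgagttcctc
IL15RA, IL28RA and CXCL11 held 1 GAS match each, CXCL11 also held 1 AP-1 match, and the IL21R and IL6R windows held none of the 3 motifs. Of the 23 family genes changed in either line, 19 had a promoter in the table, 5 of them with a GAS match (CCR1 and IL17D besides those shown), 2 with AP-1 (CXCL11 and IL11) and 0 with the interferon response motif. Over all 35116 promoters, 6.57% held the GAS letters, 6.57% the AP-1 letters and 3.02% the interferon response letters. Over the 114 promoters of the family the shares were higher, 12.3, 15.8 and 8.77%. A match describes letters in the window, not binding.

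Most of the family was at background in both lines. In the A2780CBN comparison 46 of 145 genes (31.7%) had a probe well above background in 1 channel on all 4 arrays, against 60.3% of all genes on the array, and in the A2780CBNDXL comparison 45 (31%) did, against 57.8%. Detected in both comparisons were 41 genes, in neither 95, and for 69 genes no channel of any probe was above background on any of the 8 arrays. Among these 69 were IL6, IL8, IL1A, IL1B, CCL2, CCL5, CXCL1 and CXCL10, the secreted inflammatory factors most often studied in tumours. The IL6 probe read 6.38 to 15.6 and the IL8 probe 4.35 to 7.42 over both channels of all 8 arrays. Receptors were detected more often than ligands. In the A2780CBN comparison 27 of 58 receptors (46.6%) and 17 of 83 ligands (20.5%) passed, and in the A2780CBNDXL comparison 25 (43.1%) and 18 (21.7%). Among the 5 main roles interleukin receptors had the highest share, 21 and 19 of 41, and interleukins the lowest, 8 of 44 in each comparison. A gene at background is one not measurable with these probes, which is not evidence that it is not expressed.

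**Figure D1:**
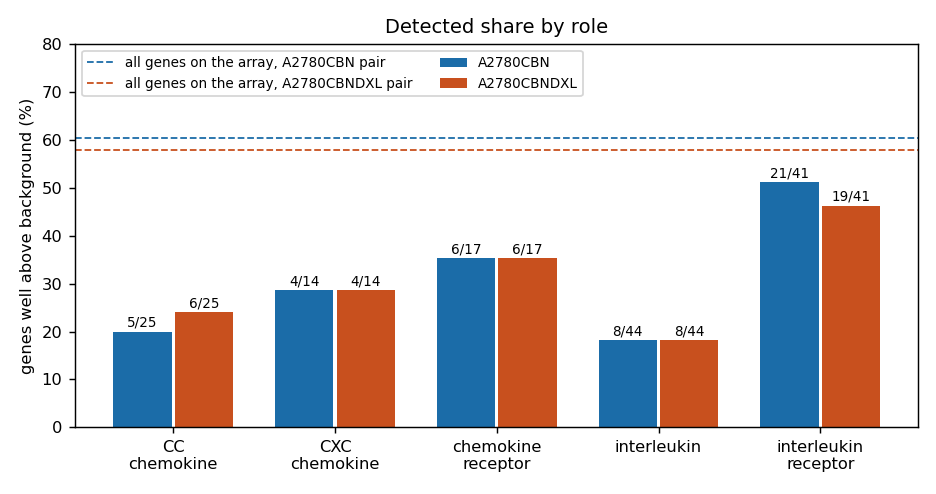
Share of the genes of each role (percent, bars from 0) with a probe well above background in 1 channel on all 4 arrays, for the A2780CBN (blue) and A2780CBNDXL (orange) arrays, with the counts above the bars and the share over all genes as dashed lines at 60.3 and 57.8%. All bars lie below the dashed lines, with interleukins at 18.2% and interleukin receptors at 51.2 and 46.3%.

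In A2780CBN, 12 of the 45 family genes that could be tested (26.7%) were changed, 11 higher and 1 lower, where 12.6% of all tested genes changed (8.01% higher and 4.57% lower). In A2780CBNDXL, 17 of 45 (37.8%) were changed, 6 higher and 11 lower, where 17.0% of all tested genes changed (7.72% higher and 9.24% lower). The tested members were dimmer than all tested genes. The median signal of the brighter channel was 180 against 912 in A2780CBN and 230 against 1120 in A2780CBNDXL. The shares over all genes were not matched for signal, so they are not a like background. The median log2 ratio over the tested members was 0.14 in both lines, beside -0.06 and 0.04 over all genes, both well under the 2-fold limit. Regardless of sign the sizes differed more, with a median of 0.34 in A2780CBN (0.33 over all genes) and of 0.73 in A2780CBNDXL (0.39). These counts depend on the processing. With normexp background correction and loess the changed members fell to 3 of 45 in A2780CBN (IL15, IL15RA and IL21R) and 3 of 45 in A2780CBNDXL (CCR1, IL21R and IL4R). Of all genes 3.38 and 6.86% changed under that setting. The share of the members was then above that of all genes in A2780CBN only, and no higher in A2780CBNDXL. That setting alters the background correction and the normalization together, and the part of each was not tested.

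**Figure D2:**
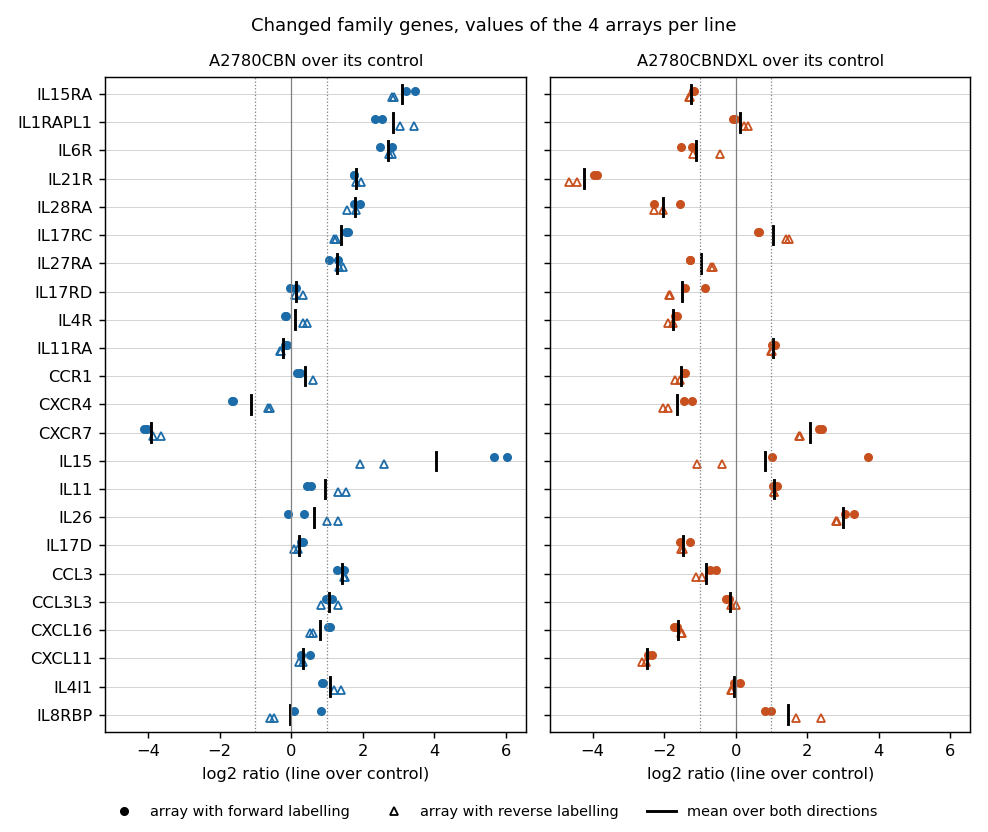
Log2 ratio of line over control (x axis) for the 23 family genes changed in either line, grouped by role, on each of the 4 arrays of A2780CBN (left) and A2780CBNDXL (right); circles are forward and triangles reverse labelling, the black bar is the mean and dotted lines mark 2-fold. The 7 interleukin receptors at the top lie right of 0 in A2780CBN, and of these IL15RA, IL6R, IL21R, IL28RA and IL27RA lie left of 0 in A2780CBNDXL, and IL15 is spread by labelling direction.

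The receptors gave the clearest contrast. IL21R, IL15RA, IL28RA and IL6R rose in A2780CBN and fell in A2780CBNDXL, each called in both. IL21R is the ligand-specific chain of the interleukin 21 receptor, and its probe lies at chr16:27368825-27368884 of NCBI36. The A2780CBN channel read 4373, 4817, 4322 and 4598 beside a control of 1293, 1238, 1287 and 1322, and the A2780CBNDXL channel 189.9, 167, 249 and 176 beside 2952, 4209, 3665 and 3813. On every array of A2780CBN the line was thus above its control and on every array of A2780CBNDXL far below it, without overlap. The log2 ratios were 1.82 ± 0.10 and -4.23 ± 0.38, or 3.52-fold higher and 18.8-fold lower. The 2 controls themselves differed by 1.37 ± 0.09 (log2), and with the other line's control in the denominator the ratios were 0.45, under the 2-fold limit, and -2.86.

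IL15RA binds interleukin 15 with high affinity and presents it to neighbouring cells, and its probe lies at chr10:6034667-6034726. Its signal was 534, 550.0, 558 and 517 in A2780CBN and 48.5, 78.3, 59.9 and 70.4 in the control, a log2 ratio of 3.09 ± 0.30. In A2780CBNDXL it was 58.9, 54.6, 61.3 and 54.1 against 135, 135, 136 and 132, a ratio of -1.24 ± 0.08. Line and control did not overlap in either comparison. However, the control of A2780CBNDXL was the brighter one by 1.05 ± 0.47, and against the other control IL15RA had a ratio of 2.04 in A2780CBN but -0.19 in A2780CBNDXL, so the fall in the second line was lost.

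IL28RA, now named IFNLR1, is the ligand-specific chain for lambda interferons. The probe at chr1:24353354-24353413 read 485, 459, 423 and 463 in A2780CBN against 143, 155, 110.5 and 131, and 17.9, 78.6, 85.1 and 69.9 in A2780CBNDXL against 87.1, 323, 249 and 340.5. The gene was therefore bright in A2780CBN on all arrays and close to background in A2780CBNDXL, where 3 of 4 arrays were above it, and array 1 was dim in both channels. The log2 ratios of 1.77 ± 0.15 and -2.04 ± 0.35 kept their sign and size limit against the other control, at 1.09 ± 0.79 and -1.36 ± 1.01. These spreads are large beside the ratios. With normexp IL28RA lost its call in both lines. In A2780CBNDXL the ANOVA did not list it, and its further probe was at background in both lines.

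IL6R, the interleukin 6 binding chain, has its probe at chr1:152705540-152705599. It rose in A2780CBN, with signals of 179, 169, 165 and 177 against 31.8, 25.2, 23.4 and 25.3 and a log2 ratio of 2.72 ± 0.15. Its fall in A2780CBNDXL was near the limit, at -1.09 ± 0.47, with signals of 15.4, 38.3, 23.2 and 17.4 against 44.6, 51.7, 53.8 and 40.0, of which the line was above background on 2 arrays. The ratios of the 4 arrays were -1.53, -0.43, -1.22 and -1.20. The call was lost without array 4, in the ANOVA, with normexp (-0.13) and against the other control (-0.31). The rise in A2780CBN remained at 1.93 against the other control and was 0.63 with normexp.

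IL27RA, the specific chain for interleukin 27, rose in A2780CBN at 1.29 ± 0.17, and its other probe gave 1.15 ± 0.32. In A2780CBNDXL the probe used for the gene was at -0.97 ± 0.35, just under the limit on arrays of -1.26, -0.69, -1.27 and -0.65, and the other probe passed at -1.44 ± 0.54. IL17RC, a chain of the receptor for interleukins 17A and 17F, rose in both lines, at 1.39 ± 0.20 and 1.04 ± 0.46. In A2780CBNDXL its ratios of 0.65, 1.48, 0.62 and 1.40 split by labelling, with both forward arrays under the limit. IL1RAPL1, a relative of the interleukin 1 receptor accessory protein best known in neurons, read 41.2 on average in A2780CBN while 0 of 4 control arrays passed the background limit, so it was at least 1.88-fold higher. It was at background in both channels of A2780CBNDXL. The call of IL1RAPL1 in A2780CBN was lost with normexp, with background-subtracted signals and with 50 added to both signals.

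Receptor chains that changed in A2780CBNDXL without a call in A2780CBN were IL4R, IL17RD and IL11RA. IL4R, shared by the receptors for interleukins 4 and 13, read 862, 1161, 1051 and 958 against 2674, 3929, 3423 and 3534 in A2780CBNDXL, a log2 ratio of -1.74 ± 0.11. In A2780CBN it was at 0.11 ± 0.32, with the sign split by labelling. The fall of IL4R held with normexp, at -1.52, and against the other control, at -1.52. IL4R and IL21R are neighbours on chromosome 16, their probes starting at 27283500 and 27368825. IL17RD, which also restrains fibroblast growth factor signalling, fell at -1.49 ± 0.47. IL11RA, the interleukin 11 binding chain, rose at 1.04 ± 0.05 (1.15 ± 0.08 on its other probe) and was at -0.22 ± 0.09 in A2780CBN; against the other control its rise was 0.91, under the limit.

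Other receptor chains were detected with ratios under the limit. IL6ST was at 0.13 ± 0.12 and -0.60 ± 0.08, IL10RB at 0.90 ± 0.09 and 0.22 ± 0.21, IL17RA at 0.27 ± 0.06 and 0.41 ± 0.05, and IL13RA1 at -0.03 ± 0.51 and 0.20 ± 0.05. IL27, the ligand of IL27RA, was at -0.18 ± 0.25 and 0.21 ± 0.31, and IL28A, a ligand of IL28RA, at -0.20 ± 0.34 and 0.14 ± 0.35. Probes of a gene did not always give 1 answer. A further IL6ST probe was at -1.11 ± 0.40 in A2780CBN, a second IL17RA probe at 1.22 ± 0.19 in A2780CBNDXL, and a second CCR3 probe, for a receptor of eotaxins, at 1.91 ± 1.05 in A2780CBN where the first gave 0.31 ± 0.41. Of members with more than 1 tested probe, the signs were opposite for 3 of 10 in A2780CBN (IL6ST, IL13RA1 and IL18BP) and for 0 of 7 in A2780CBNDXL. The shared chain IL2RG was at background throughout (4.63 to 11.3), as was IL2RB (4.42 to 19.8), so of the interleukin 15 and 21 receptors only the ligand-specific chains were measurable.

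**Figure D3:**
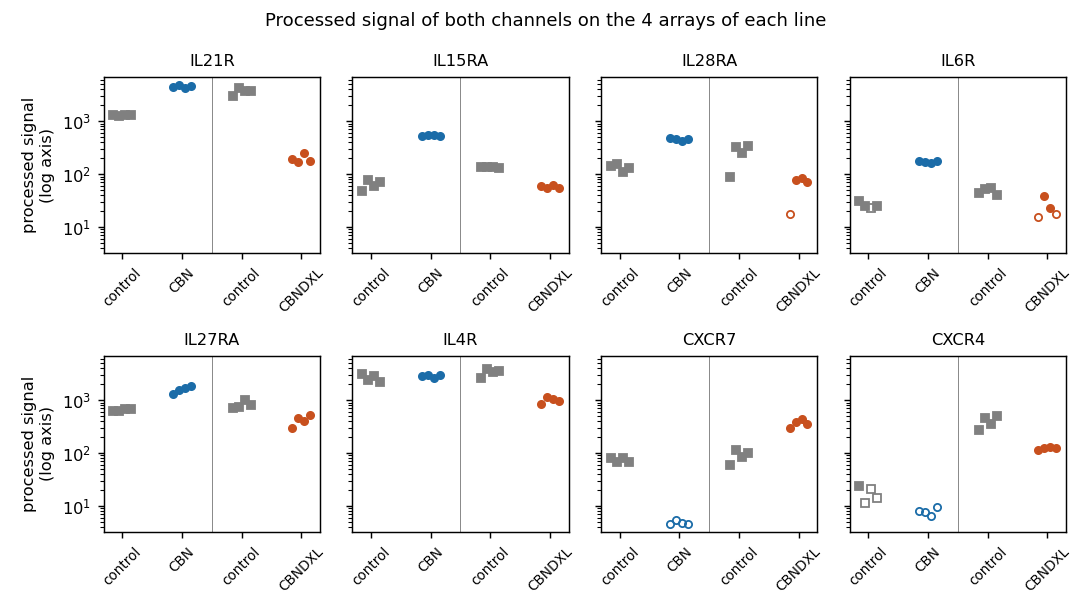
Processed signal (log axis) of 8 receptors on the 4 arrays of each line, with the control channel as grey squares and the line as blue (A2780CBN) or orange (A2780CBNDXL) circles; open symbols are not well above background. IL21R, IL15RA, IL28RA and IL6R lie above the control in A2780CBN and below it in A2780CBNDXL, CXCR7 shows the reverse, and the CXCR4 control differs between the 2 sets of arrays.

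Among chemokine receptors CXCR7 (now ACKR3), an atypical receptor that binds CXCL12 and CXCL11, fell in A2780CBN and rose in A2780CBNDXL. Its probe lies at chr2:237155522-237155581. The controls were alike, at 79.8, 67.2, 79.1 and 66.8 beside A2780CBN and 60.6, 112, 82.4 and 100.1 beside A2780CBNDXL. The A2780CBN channel read 4.61, 5.34, 4.86 and 4.56, above background on 0 of 4 arrays, so expression was at least 3.25-fold lower, and the A2780CBNDXL channel read 303, 382, 436 and 347, a log2 ratio of 2.07 ± 0.34 or 4.21-fold. No array of a line overlapped with its controls, and the rise in A2780CBNDXL was 2.23 against the other control and 0.89 with normexp. The fall in A2780CBN lost its call with normexp and with background-subtracted signals centred on the median.

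CXCR4, the signalling receptor for CXCL12, had a log2 ratio of -1.64 ± 0.38 in A2780CBNDXL, with 114, 125, 129 and 124 in the line and 267, 462, 350.0 and 501 in the control. Beside A2780CBN, however, the control read 23.4, 11.5, 20.7 and 14.2 and the line 7.86, 7.69, 6.50 and 9.50, so the gene could not be tested there. Set against that dim control, above background on 1 of 4 arrays, A2780CBNDXL was higher, at 2.76, and the direction of CXCR4 in this line depends on the control in use. The CXCR4 channels of the lines differed by 3.89 ± 0.28, and that of A2780CBNDXL was at least 5.09-fold higher. CCR1, a receptor for CCL3 and CCL5, fell in A2780CBNDXL at -1.52 ± 0.12, with signals of 1820.3, 2388, 2331 and 2178 against 4827, 6966, 6317 and 6989. The ratio was -0.89 against the other control and -0.76 ± 0.59 on a second probe. In A2780CBN an outlier spot left CCR1 with 3 arrays, at 0.23, 0.60 and 0.17, and no call was made. CCR10 was under the limit in both lines, at -0.47 ± 0.12 and 0.88 ± 0.23, although its line channels differed by 2.40 ± 0.13 and its controls by 1.05 ± 0.21.

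Of the ligands, 3 of 17 tested were changed in A2780CBN (17.6%, with CCL3 and CCL3L3 counted separately) and 5 of 18 in A2780CBNDXL, beside 12.6 and 17.0% of all genes. The A2780CBN share is near the background. IL15, a survival factor for lymphocytes, was higher in A2780CBN, with signals of 313, 255, 278 and 326 that hardly varied, but the control read 4.80, 67.2, 5.49 and 53.9 and was above background on the 2 reverse arrays only. The ratios of 6.03, 1.93, 5.66 and 2.59 had the same sign and a mean of 4.05 ± 2.09, the largest SD among the changed members. The size of the rise is therefore uncertain, with the reverse arrays, where both channels were measured, at 1.93 and 2.59 and the normexp value at 1.01. In A2780CBNDXL the IL15 signal was close to background and no call was made. IL15 and IL15RA were thus both called higher in A2780CBN.

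IL26, a member of the interleukin 10 family, rose in A2780CBNDXL at 2.99 ± 0.23, with 163, 245, 313 and 316 in the line and 19.7, 34.4, 31.8 and 45.4 in the control. In A2780CBN it was at 0.65 ± 0.63, with values on both sides of 0. Of its receptor chains, IL20RA was at background and IL10RB was measured as above. IL11, a bone and stromal cytokine of the interleukin 6 family, rose in A2780CBNDXL at 1.08 ± 0.05 together with IL11RA. In A2780CBN its ratios of 0.44, 1.32, 0.55 and 1.52 split by labelling around a mean of 0.96 ± 0.54, and it did not pass. IL17D, a divergent member of the interleukin 17 family, fell in A2780CBNDXL at -1.46 ± 0.13 and was at 0.22 ± 0.11 in A2780CBN.

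CXCL11 fell in A2780CBNDXL, from 92.5, 187, 169 and 134 in the control to 17.0, 30.1, 33.5 and 23.7 in the line, a log2 ratio of -2.48 ± 0.12. The line was above background on 2 of these 4 arrays, so the size of the fall is uncertain, and the other probe averaged 9.44 in the line, a signal near background that gives no size. In A2780CBN CXCL11 was at 0.34 ± 0.14. CXCL9 and CXCL10, the other ligands of CXCR3, were at background, and the CXCR3 signals of 10.3 to 72.9 lay close to it. CXCL16, a transmembrane chemokine and scavenger receptor, fell in A2780CBNDXL at -1.60 ± 0.10 and was at 0.82 ± 0.29 in A2780CBN; against the other control these values were -0.97 and 0.18. Its receptor CXCR6 was at background. CXCL12, the ligand of CXCR4 and CXCR7, read 22.3 to 34.7 and was not tested.

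CCL3 and CCL3L3 rose in A2780CBN, at 1.43 ± 0.10 and 1.06 ± 0.20. Their transcripts are nearly identical, so the probes may share signal and the 2 genes cannot be counted as separate. CCL3 read 224, 223, 198 and 228 in the line and 81.1, 80.4, 81.5 and 79.9 in the control, and in A2780CBNDXL it was at -0.82 ± 0.24, under the limit. CCL3L3 lost its call without array 2, at 0.94, and against the other control, at 0.97. IL4I1, which is no cytokine, was 1.08 ± 0.25 in A2780CBN and -0.04 ± 0.11 in A2780CBNDXL, and the pseudogene IL8RBP was 1.47 ± 0.72 in A2780CBNDXL with its control above background on 1 array. Detected ligands without a call included CCL24, at 0.06 ± 0.23 and 0.21 ± 0.13, and CXCL5, at -0.25 ± 0.04 and 0.25 ± 0.20.

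The lines were also set against each other by their own channels and by their ratios, so the control channels still enter the calls. A gene was said to differ when both the line channels, scaled between arrays, and, as a second condition, the ratios were 2-fold or more apart with 1 direction over all matched arrays. Of 50 members testable in this way 21 differed (42.0%), 7 higher and 14 lower in A2780CBNDXL, where 12.2% of all genes did (4.47% higher and 7.74% lower). The share over all genes was not matched for signal here either. IL21R was 25.6-fold lower in A2780CBNDXL than in A2780CBN, IL15RA 9.70-fold and IL27RA 4.13-fold. IL28RA and IL6R were also lower, but were above background on 3 and 2 of the 4 arrays of A2780CBNDXL, so their measured differences of 8.78-fold and 8.15-fold are of uncertain size. On the log2 scale the line channels of IL21R differed by -4.68 ± 0.47, of IL15RA by -3.28 ± 0.23 and of IL27RA by -2.05 ± 0.10, each several times the spread between array pairs. CXCR7 was at least 15.3-fold higher in A2780CBNDXL. IL26 (2.48 ± 0.24), CCR10, IL11RA (1.12 ± 0.17), IL17RE (1.01 ± 0.16) and IL1RAPL2 (1.34 ± 0.34) were the other members higher there, besides the pseudogene IL8RBP. CXCR4 did not meet the rule because its ratios were only -0.51 apart. With normexp 7 members differed, and the share over all genes was not computed for that setting.

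Genes that act with the family were followed in lists. In the JAK-STAT list, 5 of 23 tested genes rose and 1 fell in A2780CBN, and 1 of 22 rose and 4 fell in A2780CBNDXL, with list medians of 0.06 and -0.20. Over all tested genes 8.01% rose and 4.57% fell in A2780CBN, and 7.72% rose and 9.24% fell in A2780CBNDXL, so the single genes that fell in A2780CBN and rose in A2780CBNDXL are no more than the background share. These shares are the background for each list below as well. In A2780CBN JAK3, the kinase bound to IL2RG, was at 2.09 ± 0.70 and STAT3, which acts downstream of IL6ST, at 1.61 ± 0.22. STAT2 was at 1.67 ± 0.31 there and JAK1 at 1.11 ± 0.29, with the reverse arrays of JAK1 under the limit (0.81 and 0.92). CISH, a SOCS family inhibitor, fell in A2780CBN at -2.07 ± 0.18.

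The feedback inhibitors SOCS2 and SOCS3 carried the largest changes of the list, both in A2780CBNDXL. SOCS2 read 195, 225, 243 and 218 against 11381, 16129, 13737 and 16659, a log2 ratio of -6.03 ± 0.22, and SOCS3 averaged 134 against 2716, a ratio of -4.35 ± 0.20. In A2780CBN they were at -0.39 ± 0.42 and -0.32 ± 0.30. In A2780CBNDXL the phosphatase PTPN6 rose (1.40 ± 0.15) and PTPN11 fell (-1.19 ± 0.39). The forward arrays of PTPN11, at -0.84 and -0.86, were under the limit. Of the NF-kappaB and interleukin 1 signalling list, NFKB2 alone passed in A2780CBN, at 1.05 ± 0.82, out of 21 tested, and its ratios of 1.78, 0.36, 1.74 and 0.33 split by labelling. In A2780CBNDXL 1 of 23 rose, NFKBIZ at 1.52 ± 0.19, and 3 fell, RELB at -1.42 ± 0.15, CHUK at -1.02 ± 0.12 and CEBPB, a factor downstream of interleukins 6 and 17, at -1.81 ± 0.09.

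Among other cytokines of the class, 4 of 20 rose and 1 fell in A2780CBN and 4 of 18 rose and 3 fell in A2780CBNDXL. IFNG, encoding interferon gamma, read 264, 256, 192 and 245 in A2780CBN over a control not well above background, at least 10.5-fold higher, and 3587, 4158, 4053 and 3149 in A2780CBNDXL over 52.8, 101, 49.4 and 62.9, a log2 ratio of 5.87 ± 0.44. CLCF1, a cytokine of the interleukin 6 class, was at -0.63 ± 0.40 and 1.38 ± 0.13. CNTFR, the receptor chain for ciliary neurotrophic factor, was at least 3.29-fold lower in A2780CBNDXL. LIF rose in A2780CBN at 1.29 ± 0.36, EPOR in both lines at 1.06 ± 0.29 and 1.85 ± 0.03, and TGFB1 in A2780CBNDXL at 1.22 ± 0.46. The reverse arrays of EPOR in A2780CBN (0.80 and 0.82) and the forward arrays of TGFB1 in A2780CBNDXL (0.79 and 0.85) were under the limit. CSF2RA was at least 3.01-fold lower in A2780CBN. IFNGR1 fell in A2780CBNDXL at -1.31 ± 0.70, with its forward arrays at -0.54 and -0.89, under the limit. Of 13 chemokine genes outside the name rule 2 were tested, CX3CL1 and XCR1, and neither passed.

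**Figure D4:**
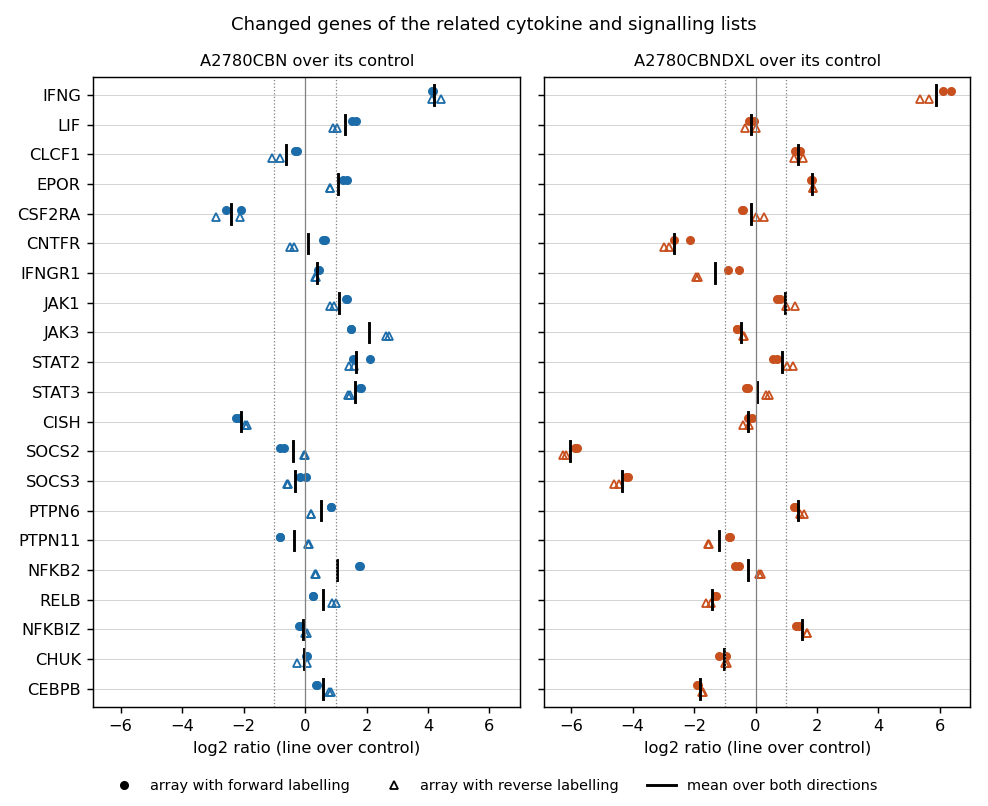
Log2 ratio of line over control (x axis) on each of the 4 arrays for 21 changed genes of the related cytokine, JAK-STAT and NF-kappaB lists, drawn as in the plot of changed family genes. IFNG is high in both lines, and SOCS2 and SOCS3 are far below 0 in A2780CBNDXL.

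Markers of other cells were checked because the family is best known from leukocytes. Of 20 leukocyte markers, PTPRC, CD3D, MS4A1, LYZ, FCGR3A, CD53 and LCP2 were above background on no array of either line, while CD3E, CD4, CD8A, CD14, CD68 and NKG7 were above it on all. None of 6 tested was changed in A2780CBN; in A2780CBNDXL 2 markers rose and 2 fell among 11 tested, with CD8A and ITGAM higher and AIF1 lower. The summed signal of the list was 6995 to 17269.7 in A2780CBN and 6478 to 17113 in its control, and 9230.1 to 25140.1 in A2780CBNDXL and 7774 to 17375 in its control. The epithelial markers KRT8, KRT18, PAX8, MUC1, CLDN3 and ESR1 were detected, but CDH1, KRT7, CLDN4, MUC16 and WT1 were at background. EPCAM rose in both lines (2.07 ± 0.30 and 1.67 ± 0.24) and KRT18 in A2780CBN (1.05 ± 0.16). Of the tested epithelial markers, 2 of 8 rose in A2780CBN and 1 of 7 in A2780CBNDXL, and none fell. Of the stromal markers, COL3A1, DCN and LUM rose and COL1A2 fell in both lines. PDGFRB rose in A2780CBN (2.36 ± 0.12), the direction of IL21R and IL15RA there. In A2780CBNDXL it was at -2.53 ± 0.71, negative on all 4 arrays (-1.52, -2.65, -2.80 and -3.15). It was not tested there because its control was well above background on 3 arrays and its line on 2. COL1A1 was at 0.99 ± 0.08 in A2780CBN and rose in A2780CBNDXL (2.04 ± 0.20). The endothelial markers PECAM1, CDH5 and KDR were at background. The lines and controls were cultures of A2780 cells, not tissue, and a part of other cells in the ratios was not tested. In bulk RNA fewer cells that express a gene and less RNA per cell cannot be told apart.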

How the data were processed

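Total RNA of each line and control was labelled with Cy3 and Cy5 and hybridized to Agilent 4x44k arrays. The authors deposited the output of Agilent Feature Extraction (10.7.1.1 on slide 1, 10.7.3.1 on slide 2), and the deposited intensity of each channel was background-subtracted, detrended and dye-normalized by that software, with surrogates near background. Probe coordinates are NCBI36. The file list gives the reverse arrays the dyes of the forward ones; they were turned over as their name states. Outlier spots were left out and spots of a probe averaged. Log2 ratios were averaged within each labelling direction, then over both, and a gene was represented by its probe of highest mean signal. Of 145 members, 140 matched RefSeq, 14 under another current symbol. Bounds came from channels scaled by Aquantile, as the mean of the bright channel over the lowest signal well above background or the dim signal itself, whichever was higher.

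Each line is 1 sample, so no p is given; the number of arrays limits the precision. The members, lists and rules were chosen with earlier results of these data known. Every changed member, the 8 brightest members, the partners of changed members and changed list members are named. A 3-way ANOVA (false discovery rate 0.05 with 2-fold) and limma were alternatives, with array error alone. The methods name such an ANOVA but do not list its factors. Here they were line, dye and slide, without a term for the array that pairs the 2 channels. The steps were tested on simulated data. Python 3.11.15 (pandas 2.3.3, numpy 2.4.6, matplotlib 3.10.9) and R 4.3.3 with limma 3.58.1 were used. A2780DXL was not analysed here, and some list members are not reported here.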

Additional observations from a re-analysis of the deposited data

Results flagged for a closer look

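In 11 members changed in at least 1 line, all arrays of A2780CBN moved one way and all arrays of A2780CBNDXL the other. The difference between the lines was not tested across cultures, since each is 1 sample, and it is given here as the log2 ratio of A2780CBNDXL minus that of A2780CBN. For IL21R it was -6.05, and CXCR7 went the other way at 5.99, a value with no reliable size because CXCR7 was above background on 0 of 4 arrays of A2780CBN. IL6R, CXCL11, CCL3 and IL28RA were above it on 2, 2, 3 and 3 arrays of A2780CBNDXL, which makes the sizes below uncertain too. IL15RA was at -4.33, IL28RA at -3.81, IL6R at -3.81 and IL27RA at -2.25. The ligands CXCL11, CXCL16, CCL3 and IL17D were at -2.82, -2.42, -2.26 and -1.68, with CXCL11, CXCL16 and IL17D called in A2780CBNDXL and CCL3 in A2780CBN. IL11RA was higher in A2780CBNDXL by 1.25.

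The controls beside the lines differed for part of these genes, by 1.37 ± 0.09 for IL21R, 1.05 ± 0.47 for IL15RA, 0.90 ± 0.56 for CXCL11 and 0.16 ± 0.38 for CXCR7 (control of A2780CBNDXL minus control of A2780CBN, log2). The line channels alone differed by -4.68 ± 0.47 for IL21R, -3.28 ± 0.23 for IL15RA and -1.92 ± 0.50 for CXCL11, and CXCR7 was at least 15.3-fold higher in A2780CBNDXL.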

How the results depend on the processing

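With normexp and loess, which change background correction and normalization together, the changed members fell to 3 in A2780CBN and 3 in A2780CBNDXL. Of all genes 3.38 and 6.86% changed under that setting. The members differing between the lines fell to 7, for which the share over all genes was not computed. In an alternative chosen after seeing the data, adding 50 to both processed signals gave 9 and 11 changed members, while 7.5 and 12.3% of all genes changed. A 3-fold limit gave 7 and 8, and a 1.5-fold limit 26 in A2780CBNDXL. Counting a signal on any array raised the detected members in A2780CBNDXL to 68. CXCR4 in A2780CBNDXL reversed to 2.76 against the control of the other line; over 347 recomputed values of changed genes this was the one reversal, 55 moved by more than the spread between arrays and 291 did not.

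With each array left out in turn, A2780CBN kept a count of 12 (lowest 12, highest 12) and A2780CBNDXL had 16 to 19 changed members, the detected members were 46 to 48 and 45 to 52, and 20 to 21 members differed between the lines. CCL3L3 lost its call and IL11 gained one without array 2 of A2780CBN, and IL6R without array 4 of A2780CBNDXL. Against the other line's control CCL3L3, IL21R and IL4I1 lost their calls in A2780CBN, and CCR1, CXCL16, IL11RA, IL15RA and IL6R in A2780CBNDXL. Requiring both channels above background dropped CXCR7, IL15, IL1RAPL1 and IL6R in A2780CBN and CXCL11, IL26, IL28RA, IL6R and IL8RBP in A2780CBNDXL. Background-subtracted signals centred on the median dropped CXCR7 and IL1RAPL1 and added IL11 in A2780CBN, and dropped IL17RC in A2780CBNDXL. The ANOVA gave 12 and 15 changed members, limma 12 and 17, and limma with slide as a block the same numbers. Each line is 1 sample and no paired analysis was possible because the arrays of a line repeat that sample. Near background a ratio has no reliable size, which limits most ligands.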

Other observations

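The genes whose probes lie within 1 Mb of 3 changed members were listed after those members were seen, by position in NCBI36 alone. Genes are counted here by the name given on the array, which for some is only a probe or sequence number. Around IL26 on chromosome 12, 10 of 18 genes were tested in each line and 3 rose in A2780CBNDXL, where 7.72% of all tested genes rose. They were IFNG (5.87 ± 0.44), MDM1 (2.77 ± 0.17) and RAP1B (1.35 ± 0.37), while MDM2 was at 0.02 ± 0.16 and NUP107 at -0.75 ± 0.53. IL22, which lies between IL26 and MDM1, was not tested, since it was above background on 0 arrays of A2780CBN and on 1 array in each channel of A2780CBNDXL. In A2780CBN IFNG rose and MDM1 was at 0.25 ± 0.50 and RAP1B at 0.17 ± 0.14.

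Around CXCR7 on chromosome 2, 7 of 19 genes were tested in each line. In A2780CBN 2 fell, where 4.57% of all tested genes fell, and in A2780CBNDXL 3 rose, where 7.72% rose. COPS8 was at -1.47 ± 0.21 in A2780CBN and 1.82 ± 0.21 in A2780CBNDXL, the directions of CXCR7 itself. A probe without a gene name beside COPS8 was at -2.03 ± 0.84 and 1.33 ± 0.23. COL6A3 was at -0.61 ± 0.41, under the limit, and 1.94 ± 0.09. AGAP1, on the other side, was at -0.94 ± 0.07 and -0.71 ± 0.09, and PRLH at -0.53 ± 0.16 and -0.06 ± 0.03. Around IL21R on chromosome 16, 12 of 24 genes were tested in A2780CBN and 0 were changed. In A2780CBNDXL 10 were tested and 1 fell, IL4R, where 9.24% of all tested genes fell. GTF3C1, the nearest tested gene on the other side, was at -0.25 ± 0.82 and 0.38 ± 0.29.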
